A study of Mus musculus with 23 samples.

Results

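The genes described here encode the machinery with which a cell presents peptides on major histocompatibility complex (MHC) molecules. They were 10 genes in all, out of 20145 genes with a named probe on the array. *H2-Aa*, *H2-Ab1* and *H2-Eb1* encode chains of MHC class II, *Cd74* the invariant chain and *Ciita* the class II transactivator. *H2-K1* and *H2-D1* encode class I heavy chains, *B2m* their light chain, *Tap1* a subunit of the peptide transporter and *Psmb8* a subunit of the immunoproteasome. A probe was assigned to a gene when the RefSeq accession on the array matched that gene's symbol, and the probe with the highest mean stood for the gene. All 10 genes had a probe, and 7 of them reached a log2 intensity of 6.5 on at least 1 array and were tested, whereas *H2-Aa*, *H2-Eb1* and *Ciita* did not.

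MHC class I is carried by most nucleated cells. Its peptides are cut by the proteasome in the cytosol, pumped into the endoplasmic reticulum by the transporter associated with antigen processing (TAP) and loaded there onto a heavy chain paired with β2-microglobulin. MHC class II is largely restricted to professional antigen-presenting cells such as dendritic cells, macrophages and B cells, where the invariant chain fills its groove until cathepsins in the endosome degrade it, and its transcription depends on CIITA. Interferon-γ induces genes of both classes.

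RUNX1-ETO is the fusion protein of the t(8;21) translocation of acute myeloid leukaemia. Its effect was examined in mouse embryonic stem (ES) cells, labelled as strain C57BL/6, that carry a human RUNX1-ETO transgene under a tetracycline-responsive promoter with both copies of endogenous *Runx1* intact. All groups come from this single engineered line differentiated in vitro, so that the uninduced cells carry the silent transgene too and differ from the induced cells by doxycycline (Dox). Haemogenic endothelium (HE), HE2 cells (which have gained CD41 and still display Tie2) and CD41+KIT+Tie2- progenitors were sorted from blast culture, in which Dox was given before the sort. Myeloid progenitors were grown from purified KIT+CD41+ cells in medium with cytokines and received Dox in that medium overnight, so that the last stage differs from the others in medium and in the timing of Dox as well as in cell type.

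There were 3 arrays in each group, except for 2 of uninduced and 2 of induced progenitors, and each array measured 1 sample in 1 colour. An additional array of uninduced progenitors, labelled as a technical replicate in its title and as replicate 3 in its source, is shown and entered tests only in 2 alternatives, as a further replicate and within slide 3. All 12 HE and HE2 arrays and 3 progenitor arrays lay on slides 1 and 2, while all 6 myeloid arrays, induced progenitor array 2 and the additional array lay on slide 3, which was scanned on another day. Between 48.83% and 78.39% of the spots of an array were well above background. Nothing states that replicates came from separate cultures beyond the word biological in the titles, and induced myeloid array 3 is called a technical replicate in its source, so that P values measure the spread between these arrays. Levels below are log2 intensities after background correction and quantile normalization and are compared between arrays for 1 gene, not between genes. A gene counted as changed, or called, if limma gave it an unadjusted P value no higher than 0.001 and its means lay 2-fold or more apart.

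The probe of mouse *Runx1t1*, the gene of ETO, was higher with Dox by a log2 change of 1.24 in HE, which was not called, and rose by 2.08 in HE2, by 3.96 in progenitors and by 2.06 in the myeloid culture. Whether this mouse probe reads the human transgene is not given in the sources used here. Endothelial markers were well above background on every HE and HE2 array for all 6 genes on the list, and markers of haematopoietic commitment on every progenitor array for all 6. The same held for all 6 endothelial markers in induced progenitors and both myeloid groups. It also held for all 6 commitment markers in uninduced HE and both HE2 groups, so that detection of these markers does not tell the stages apart. Of 6 myeloid progenitor markers, 5 were well above background on every uninduced and 5 on every induced myeloid array. *Mpo*, *Prtn3* and *Spi1* fell from uninduced progenitors to uninduced myeloid progenitors while *Adgre1*, *Csf1r* and *Fcgr1*, which mark macrophages, rose, so that the cells labelled as myeloid progenitors also had macrophage markers.

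The antigen presentation genes differed in how often they were detected. *H2-K1*, *H2-D1*, *B2m*, *H2-Ab1*, *Cd74* and *Psmb8* were well above background on all 22 arrays of the fit and *Tap1* on 19. *H2-Aa* was well above background on 3 of 22 arrays, *H2-Eb1* on 11 and *Ciita* on 19, and none of these 3 reached the filter. Every tested member was higher on each of the 6 myeloid arrays than on any of the 16 other arrays of the fit. For *Psmb8* these were 15 arrays, as an outlier spot was left out. Of all 15202 tested genes, 5.84% had this order.

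**Figure D1:**
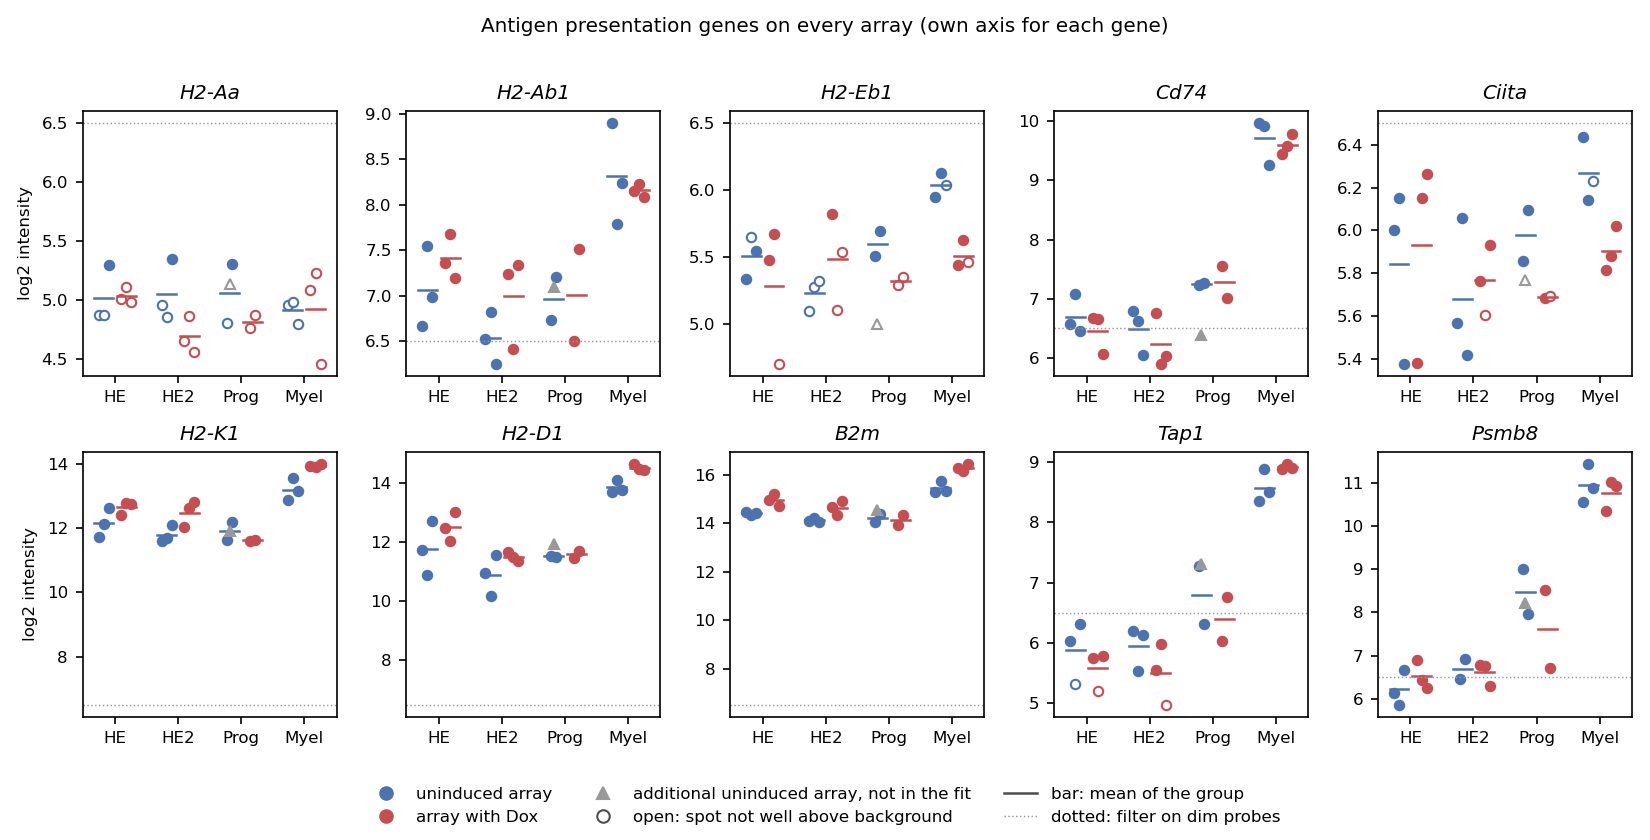
Log2 intensity of the 10 genes (a panel each, with its own vertical axis) on every array, by stage (HE, HE2, Prog for CD41+KIT+Tie2- progenitors, Myel for myeloid progenitors) and Dox. Points are arrays and bars group means; the triangle is the additional array outside the fit, open symbols are spots not well above background, and the dotted line is the filter at 6.5. The 6 myeloid arrays stand above the 16 others (15 for *Psmb8*) for all 7 tested genes, whereas *H2-Aa* stays between 4.46 and 5.35.

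The class I heavy chain genes are shown first with their promoters, because *H2-K1*, *H2-D1* and *B2m* encode the chains of the class I molecule and because class I and class II promoters are known to share a module of X and Y boxes bound by the RFX, CREB and NF-Y factors, the platform for CIITA and its class I relative NLRC5. The sequences run from 250 bases before to 50 bases after the start of RefSeq's annotation on GRCm38.p6, which held 7 of the 10 genes; *H2-Ab1*, *Cd74* and *Ciita* were not in the table. *H2-K1* lies at chr17:34000298-34000597 (minus strand), *H2-D1* at chr17:35262844-35263143 (plus), *B2m* at chr2:122147437-122147736 (plus) and *H2-Aa*, a class II gene shown for contrast because its probe was dim, at chr17:34287774-34288073 (minus). Capitals mark TGACG (the core of the X2 box), ATTGG (the inverted CCAAT of the Y box), AANNGAAA (a core bound by interferon regulatory factors) and GGGGATT (part of the κB site in enhancer A of class I genes), each searched on both strands.
H2-K1: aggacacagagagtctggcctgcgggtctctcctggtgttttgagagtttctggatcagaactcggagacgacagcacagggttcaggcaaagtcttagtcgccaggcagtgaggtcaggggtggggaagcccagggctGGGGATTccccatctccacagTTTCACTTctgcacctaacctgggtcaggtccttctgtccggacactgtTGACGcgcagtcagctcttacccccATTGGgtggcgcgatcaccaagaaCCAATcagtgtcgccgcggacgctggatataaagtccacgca
H2-D1: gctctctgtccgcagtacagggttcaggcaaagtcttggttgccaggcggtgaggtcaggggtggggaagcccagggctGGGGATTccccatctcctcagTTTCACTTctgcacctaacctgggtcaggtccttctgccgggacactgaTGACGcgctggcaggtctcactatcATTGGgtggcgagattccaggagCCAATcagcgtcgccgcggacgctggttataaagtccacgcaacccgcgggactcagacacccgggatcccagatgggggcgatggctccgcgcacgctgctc
B2m: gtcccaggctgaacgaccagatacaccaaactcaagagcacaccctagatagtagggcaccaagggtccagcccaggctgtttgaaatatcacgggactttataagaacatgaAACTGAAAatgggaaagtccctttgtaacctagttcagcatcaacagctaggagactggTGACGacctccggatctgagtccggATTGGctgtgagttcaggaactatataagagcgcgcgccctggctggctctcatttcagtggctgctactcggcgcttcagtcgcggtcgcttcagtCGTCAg
H2-Aa: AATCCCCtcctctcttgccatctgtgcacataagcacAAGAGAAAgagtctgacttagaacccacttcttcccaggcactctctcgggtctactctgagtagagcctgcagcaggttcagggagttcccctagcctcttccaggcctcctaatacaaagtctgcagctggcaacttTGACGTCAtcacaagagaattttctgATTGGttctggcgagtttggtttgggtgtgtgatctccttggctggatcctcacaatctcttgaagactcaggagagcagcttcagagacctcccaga
TGACG and its reverse complement overlap in the *H2-Aa* sequence and form a single capital run there. No other marked matches overlap.

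TGACG followed by ATTGG 15 to 30 bases further on, each on either strand, was found in *H2-K1*, *H2-D1*, *B2m* and *H2-Aa*, in the first 3 at the same distance of 25 bases, and in 1.25% of 27025 promoters of this length. *Tap1*, *Psmb8* and *H2-Eb1* did not hold this pair in their windows. GGGGATT was found in *H2-K1*, *H2-D1* and *H2-Aa* and in 3.12% of all promoters. AANNGAAA was found in 4 of the 7 windows and in 24.2% of all promoters, TGACG alone in 5 and in 21%, and ATTGG in 6 and in 37.9%. TGTGGT, the core that RUNX1 and RUNX1-ETO bind, was found in 0 of the 7 windows and in 16.9% of all promoters. The *H2-K1* and *H2-D1* windows, shifted by 60 bases against each other, were identical at 176 of 240 aligned bases (73.3%). These letter matches describe the windows, and nothing about binding was measured on the arrays.

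*H2-K1* was at 11.62 and 12.20 on the uninduced progenitor arrays and at 12.88, 13.58 and 13.15 on the uninduced myeloid arrays. With Dox it was at 11.60 and 11.64 in progenitors and at 13.95, 13.93 and 13.99 in myeloid progenitors. The myeloid arrays stood above the progenitor arrays in both settings. The 3 induced myeloid arrays also stood above the 3 uninduced ones, an order seen for 23.9% of all genes. The log2 change from progenitors to myeloid progenitors was 1.30 without Dox (s.e. 0.281, adjusted P = 0.00191 in limma) and 2.33 with Dox (s.e. 0.281, adjusted P = 1.39e-05). The former was not called without uninduced myeloid array 2 (1.11) or without uninduced progenitor array 1 (1.01). A dimmer probe of *H2-K1* gave 2.18 and 2.79, both called.

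*H2-D1* was at 11.54 and 11.50 in uninduced progenitors and at 13.68, 14.10 and 13.75 in uninduced myeloid progenitors. With Dox the levels were 11.45 and 11.70 in progenitors and 14.62, 14.48 and 14.44 in myeloid progenitors. Here too no progenitor array reached a myeloid array. The log2 change was 2.33 without Dox (s.e. 0.409, adjusted P = 0.000335 in limma) and 2.94 with Dox (s.e. 0.409, adjusted P = 6.78e-05). The letters of the probes were not used here, so that reads of *H2-K1* and *H2-D1* from each other's or other class I transcripts, which are alike in sequence, were not tested.

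*B2m*, which encodes the light chain of class I molecules, was at 14.06 and 14.37 in uninduced progenitors and at 15.30, 15.76 and 15.34 in uninduced myeloid progenitors. With Dox it was at 13.91 and 14.36 in progenitors and at 16.29, 16.16 and 16.44 in myeloid progenitors. These are bright spots, of which none was marked as saturated, and the myeloid arrays stood above the progenitor arrays in both settings. The log2 change was 1.25 without Dox (s.e. 0.208, adjusted P = 0.000211 in limma) and 2.16 with Dox (s.e. 0.208, adjusted P = 1.11e-06), or 2.37-fold and 4.48-fold.

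*Tap1* was dim in HE and HE2, between 4.97 and 6.30, with 9 of 12 arrays well above background. It was at 7.27 and 6.32 in uninduced progenitors and at 8.36, 8.88 and 8.50 in uninduced myeloid progenitors. With Dox it was at 6.03 and 6.76 in progenitors and at 8.89, 8.96 and 8.90 in myeloid progenitors. The groups did not overlap in either setting, although the 2 arrays within either progenitor group lay well apart. The log2 change was 1.79 without Dox (s.e. 0.354, adjusted P = 0.000947 in limma) and 2.53 with Dox (s.e. 0.354, adjusted P = 7.4e-05). Leaving out uninduced progenitor array 2 brought the former to 1.31, which was not called.

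*Psmb8* replaces a constitutive catalytic subunit in the immunoproteasome. It was between 5.86 and 6.92 in HE and HE2, at 8.99 and 7.96 in uninduced progenitors and at 10.55, 11.42 and 10.87 in uninduced myeloid progenitors. With Dox it was at 8.53 and 6.71 in progenitors and at 10.35, 11.02 and 10.93 in myeloid progenitors. Induced progenitor array 2 stood apart from array 1 and reached down to the levels of HE2, and the progenitor groups thus had the widest spread for this gene. The log2 change was 2.47 without Dox (s.e. 0.443, adjusted P = 0.00047 in limma) and 3.15 with Dox (s.e. 0.443, adjusted P = 9.92e-05). Leaving out uninduced progenitor array 2 brought the former to 1.96, which was not called. From HE2 to progenitors without Dox *Psmb8* was higher by 1.79 (s.e. 0.485, adjusted P = 0.028 in limma), which did not pass, and without uninduced progenitor array 2 it passed at 2.30. A spot of *Psmb8* on uninduced HE2 array 2 was marked as an outlier and left out, so that this group rests on 2 arrays.

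Of the class II genes, *Cd74* was called. It was at 7.23 and 7.26 in uninduced progenitors and at 9.97, 9.92 and 9.26 in uninduced myeloid progenitors. With Dox it was at 7.55 and 7.02 in progenitors and at 9.44, 9.58 and 9.79 in myeloid progenitors. The induced and uninduced arrays overlapped within each stage, and the myeloid arrays stood apart. HE and HE2 lay between 5.90 and 7.07 and reached the lower of the induced progenitor arrays, and the additional array of uninduced progenitors, at 6.38, lay within their range. The log2 change was 2.47 without Dox (s.e. 0.307, adjusted P = 1.06e-05 in limma) and 2.32 with Dox (s.e. 0.307, adjusted P = 3.84e-05). The genes whose 8 group means followed those of *Cd74* most closely were *Adgre1*, the macrophage marker F4/80 (Pearson's r = 0.9945), *Nhlh1* (0.9916) and *Rhag* (0.9913). Those nearest to *B2m* were *Gpr107* (0.9754), *Serpinb6a* (0.9748) and *Znfx1* (0.9743). These correlations describe 8 means from the same 22 arrays.

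*H2-Ab1*, the β chain of the class II molecule I-A, was at 6.73 and 7.20 in uninduced and at 6.501 and 7.515 in induced progenitors. It was at 8.90, 7.79 and 8.25 in uninduced and at 8.15, 8.23 and 8.09 in induced myeloid progenitors. The myeloid arrays were all higher, but the difference did not pass the test, at 1.35 without Dox (s.e. 0.36, adjusted P = 0.00812 in limma) and 1.15 with Dox (s.e. 0.36, adjusted P = 0.0334). The second *H2-Ab1* probe gave 0.95 and 1.09, of which the latter passed. Without uninduced myeloid array 2 the difference without Dox was 1.61 and passed.

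The partner chain of *H2-Ab1* in I-A, *H2-Aa*, was between 4.46 and 5.23 on the 6 myeloid arrays, of which 0 were well above background. It was between 4.56 and 5.35 on the 16 others, of which 3 were. *H2-Eb1* was at 5.95, 6.13 and 6.04 in uninduced myeloid progenitors, the last of them not well above background. These levels stood above its other 19 arrays in the fit, which lay between 4.71 and 5.82. The share of all genes with that order was not counted. *Ciita* lay between 5.38 and 6.43 over all arrays, with 6.43, 6.14 and 6.23 in uninduced myeloid progenitors and 5.82, 5.88 and 6.02 in induced ones. These 3 genes were left out of the tests by the filter. *H2-Aa* and *H2-Eb1* were often not well above background, whereas *Ciita*, though dim, was on 19 of 22 arrays. Without the filter none of them was called. *Ciita* then differed from progenitors to myeloid progenitors by 0.29 without Dox and 0.22 with Dox. *H2-Eb1* differed with Dox in myeloid progenitors by -0.53 (unadjusted P = 0.0217 in limma). Differences at these intensities are uncertain. The probes of both I-A chains were marked well above background together on 3 arrays, none of them myeloid. These were uninduced HE array 3, uninduced HE2 array 3 and uninduced progenitor array 2, all on slide 2, which held no myeloid array. *H2-Aa* was at 5.30, 5.35 and 5.31 on them, and the part of the slide in these marks was not tested.

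From progenitors to myeloid progenitors, 6 of 7 tested members were called higher without Dox, against 7% of all 15202 tested genes, and 6 of 7 with Dox, against 4.86%. All 7 had every myeloid array above every progenitor array in both settings, where 28.9% of all genes did so without Dox and 22.3% with Dox. The median log2 change of the 7 was 1.79 without Dox, compared with -0.12 over all genes, and 2.33 with Dox, compared with -0.07. The levels of bulk RNA do not tell apart more RNA of a gene per cell from more cells that express it.

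Slide and stage were partly confounded in this step. Within slide 3, the lowest uninduced myeloid array was above the additional uninduced progenitor array for all 7 genes, and the lowest induced myeloid array above induced progenitor array 2. The smallest of these differences of means was that of *B2m* without Dox (0.92) and that of *H2-Ab1* with Dox (0.64), and the largest were those of *Cd74* without Dox (3.33) and *Psmb8* with Dox (4.06). With slide as a block, 3 of 7 genes were called without Dox instead of 6, with *H2-D1* at 2.30, *B2m* at 0.82 and *Tap1* at 1.04 not called, and all 6 were called with Dox. Over slide 3 alone, where each progenitor group was 1 array that was assumed to vary like the myeloid arrays, 4 were called without Dox and 6 with Dox. Scaling to the 75th percentile in place of quantiles left 3 without Dox, with *H2-K1* (1.02), *B2m* (0.76) and *Tap1* (2.12) not called, and moved the median of all genes to -0.31.

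**Figure D2:**
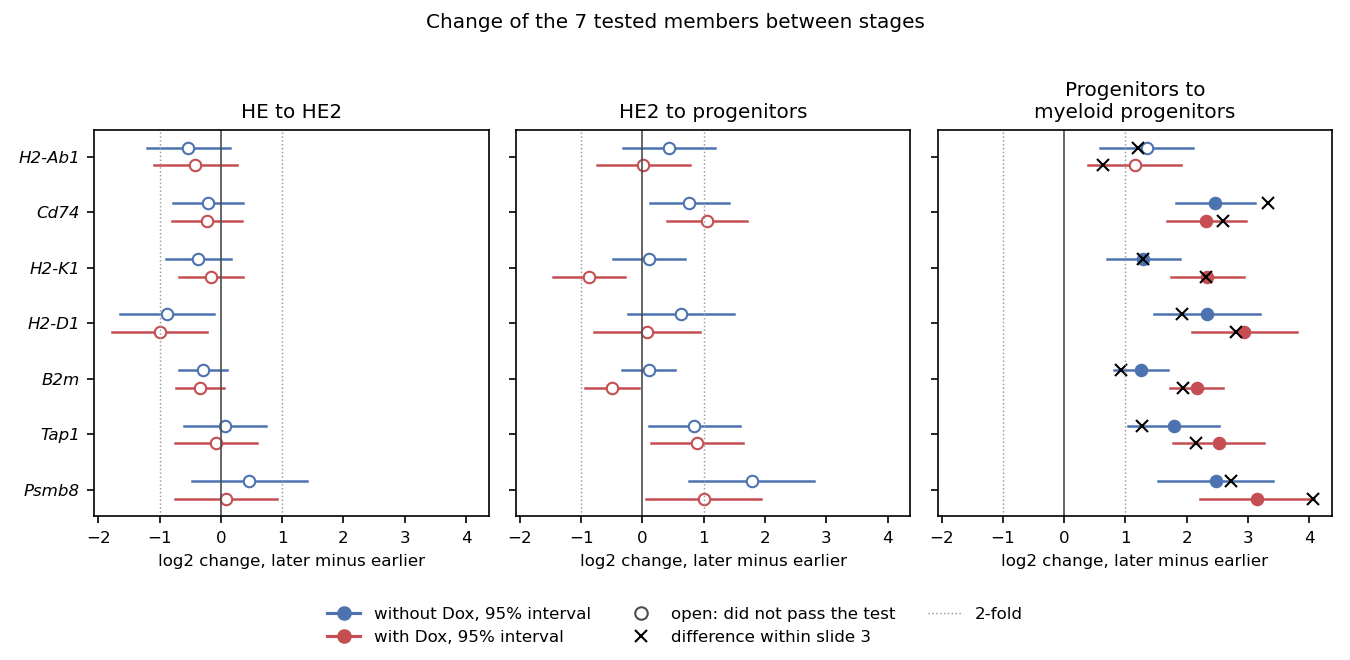
Log2 change of the 7 tested genes (rows) between successive stages (panels), later minus earlier, without Dox (blue) and with Dox (red). Bars are 95% intervals of limma, open circles did not pass the test, dotted lines mark 2-fold, and crosses are differences within slide 3, where each progenitor group is 1 array. Filled circles appear from progenitors to myeloid progenitors alone, for 6 genes in either setting.

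Some macrophage and dendritic cell markers moved in the same step. Of 6 macrophage markers with a named probe, 4 rose in either setting, where 7% of all genes did without Dox and 4.86% with Dox, and their mean level per array went from 7.92 to 8.25 in uninduced progenitors to 9.13 to 10.01 in uninduced myeloid progenitors, and from 7.85 to 8.33 to 9.61 to 10.31 with Dox. The mean over 8 dendritic cell markers went from 7.81 to 7.87 to 8.57 to 8.81 without Dox and from 7.77 to 7.83 to 8.50 to 8.66 with Dox. Of the 5 that were tested, *Itgax* and *Clec9a* alone rose, by 2.79 and 3.07 without Dox and by 2.675 and 2.255 with Dox. *Xcr1* and *Cd209a*, which define dendritic cell subsets, were in the 4 groups on no array well above background. The mean over 6 B cell markers was 6.23 to 6.56 in uninduced progenitors and 6.19 to 6.33 in uninduced myeloid progenitors, where *Cd79a*, *Ms4a1* and *Pax5* were on no array well above background. The part of such cells in the rise of the antigen presentation genes was not tested.

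At the earlier steps none of the members was called by limma. From HE to HE2, 0 of 7 passed without Dox, where 5.07% of all genes did, and 0 with Dox, where 3.1% did, with 1 member at an unadjusted P under 0.05 in either setting, beside 22.4% of all genes without Dox and 18.3% with Dox. That gene was *H2-D1*, lower in HE2 by 0.88 without Dox (s.e. 0.365, adjusted P = 0.152) and by 1.00 with Dox (s.e. 0.365, adjusted P = 0.129). Equally numbered uninduced arrays were treated as pairs, and *H2-D1*, *H2-K1*, *H2-Ab1* and *B2m* were lower in HE2 in all 3 pairs, as were 27.7% of all genes, with the number as a block adding no call. *B2m* was lower on all uninduced HE2 arrays than on all uninduced HE arrays by 0.29, an order seen for 13.3% of all genes.

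From HE2 to progenitors, 0 of 7 passed without Dox and 0 with Dox, where 5.39% and 7.36% of all genes did. The differences at an unadjusted P under 0.05 numbered 3 without Dox, beside 18.2% of all genes, and 5 with Dox, beside 26.4%. The means of all 7 genes were higher in uninduced progenitors than in uninduced HE2, with a median of 0.63, beside -0.02 over all genes. The share of all genes with that direction was not counted. *H2-K1* (0.11) and *B2m* (0.10) were lower instead in 1 alternative each. *Cd74* was above HE2 by 0.76 (95% interval 0.12 to 1.41), *Tap1* by 0.84 (0.10 to 1.59) and *Psmb8* by 1.79 (0.77 to 2.80). With Dox *Cd74* was higher by 1.05 (s.e. 0.307, adjusted P = 0.0273 in limma), whereas *H2-K1* was lower by 0.87 (s.e. 0.281, adjusted P = 0.0465). Both induced progenitor arrays of *H2-K1* were below all induced HE2 arrays, an order seen for 20.9% of all genes. This difference of *H2-K1* turned direction in 1 of 16 alternatives, where it was 0.31. *Cd74* passed without induced HE2 array 1, at 1.32, and *Psmb8*, at 1.00 with all arrays, passed without induced progenitor array 2, at 1.91.

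Dox called 0 of 7 members at any stage in limma. The shares of all genes called were 7.09% (HE), 7.22% (HE2), 3.73% (progenitors) and 6.31% (myeloid progenitors). At an unadjusted P under 0.05 there were 1, 2, 0 and 2 members in these stages, beside 26.9%, 29.5%, 20.2% and 25.4% of all genes. The means of *B2m*, *H2-K1* and *H2-D1* were higher with Dox in HE, HE2 and myeloid progenitors. Markers of endothelium moved with Dox too. Their mean level over 6 genes was 10.90 to 12.20 on uninduced and 12.14 to 13.31 on induced HE2 arrays and 9.91 to 10.46 on uninduced and 11.93 to 12.31 on induced myeloid arrays, while the ranges overlapped in HE. In progenitors it was 10.27 to 10.38 without Dox and 11.55 to 11.84 with Dox, where *B2m* was not higher. The part of the makeup of the cells in the changes of the members was not tested.

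*B2m* was at 14.46, 14.35 and 14.42 on uninduced HE arrays and at 14.96, 15.23 and 14.73 on induced ones. In HE2 it was at 14.08, 14.21 and 14.07 without Dox and at 14.67, 14.33 and 14.90 with Dox. All induced arrays were above all uninduced ones in HE, HE2 and myeloid progenitors, an order seen for 14.2%, 17% and 23.9% of all genes, and the groups overlapped in progenitors. The log2 change with Dox was 0.56 in HE (s.e. 0.186, adjusted P = 0.0471 in limma), 0.52 in HE2 (s.e. 0.186, adjusted P = 0.066) and 0.83 in myeloid progenitors (s.e. 0.186, adjusted P = 0.00494). The last of these passed the limit on P and fell short of 2-fold, at 1.78-fold. In progenitors it was -0.08 (95% interval -0.56 to 0.40). Within slides 1 and 2, *B2m* was higher with Dox by 0.56 and 0.56 in HE and by 0.52 and 0.55 in HE2.

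*H2-K1* was at 11.72, 12.13 and 12.64 in uninduced HE and at 12.41, 12.79 and 12.75 in induced HE. In HE2 it was at 11.60, 11.71 and 12.09 without Dox and at 12.04, 12.63 and 12.81 with Dox. The groups overlapped in both stages. The change was 0.48 in HE, 0.69 in HE2 (s.e. 0.251, adjusted P = 0.0691 in limma) and 0.75 in myeloid progenitors (s.e. 0.251, adjusted P = 0.0545). In progenitors it was -0.29 (95% interval -0.93 to 0.36), and 0.37 with the dimmer probe.

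*H2-D1* was at 11.72, 10.88 and 12.70 in uninduced HE and at 12.48, 12.02 and 12.99 in induced HE. In HE2 it was at 10.94, 10.18 and 11.54 without Dox and at 11.66, 11.50 and 11.34 with Dox. Its uninduced arrays were spread over more than the change with Dox, which was 0.74 in HE and 0.61 in HE2 (s.e. 0.365 each). Within slide 1 the difference was 1.19 in HE and 1.1 in HE2, and within slide 2 it was -0.19 and -0.12. In myeloid progenitors, all on slide 3, the change was 0.67 (95% interval -0.10 to 1.44). All 3 induced arrays were higher there, as they were for 23.9% of all genes.

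The remaining tested members had wide intervals around 0. *Cd74* differed with Dox by -0.24 (HE), -0.26 (HE2), 0.03 (progenitors) and -0.11 (myeloid progenitors), with 95% intervals that all held 0 and reached no further than -0.83 and 0.74. *Tap1* was at -0.30, -0.45, -0.40 and 0.34 in the same order. *Psmb8* was at 0.31, -0.07, -0.86 (95% interval -1.88 to 0.16) and -0.18, and *H2-Ab1* at 0.34, 0.47, 0.04 and -0.15.

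**Figure D3:**
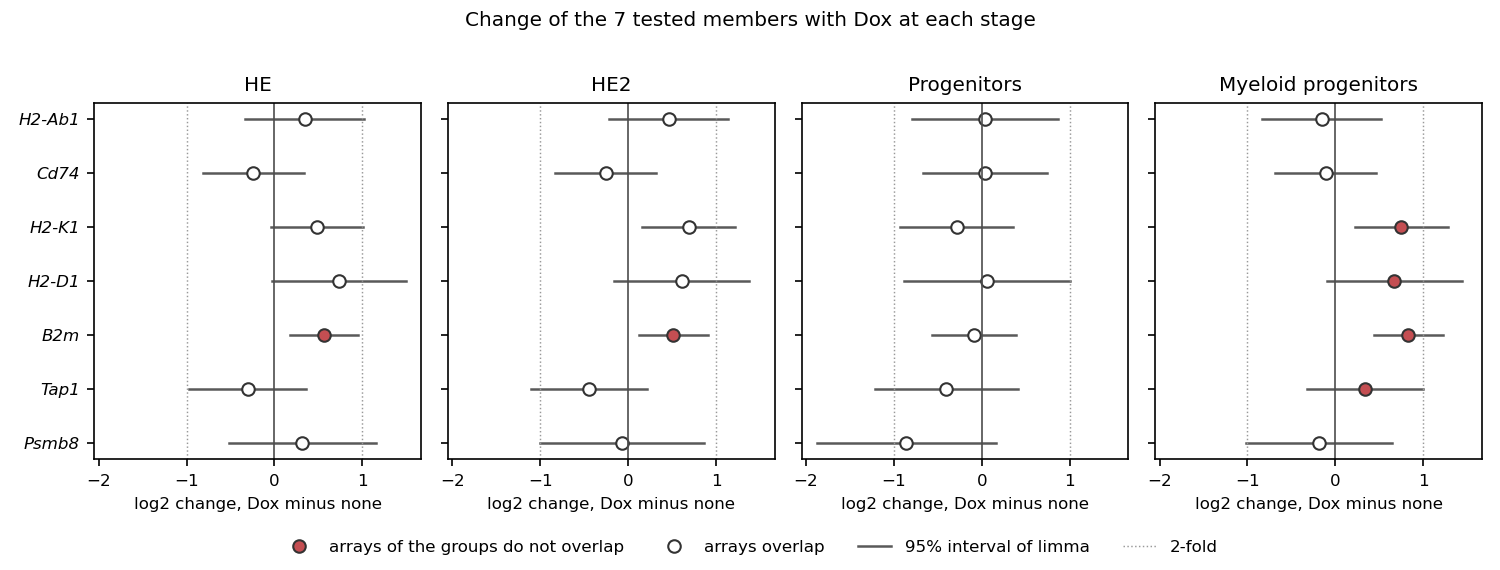
Log2 change of the 7 tested genes (rows) with Dox, induced minus uninduced, in the 4 stages (panels). Circles are means with 95% intervals of limma, filled where no arrays of the groups overlap; dotted lines mark 2-fold. *B2m* is filled in HE, HE2 and myeloid progenitors, and 4 of the 7 genes are filled in myeloid progenitors, all below 2-fold. In myeloid progenitors 23.9% of all genes had every induced array above every uninduced one.

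The difference in the response to Dox between stages was tested for all 6 pairs of stages. It was called for 0 of 7 members in each, where 1.34% of all genes were called between HE and HE2, 4.72% between HE and myeloid progenitors, 2.97% between HE and progenitors, 0.645% between HE2 and progenitors, 2.19% between HE2 and myeloid progenitors and 1.5% between progenitors and myeloid progenitors. The last pair had the lowest P values in limma. There the change of *B2m* with Dox was larger in myeloid progenitors by 0.92 (s.e. 0.294, adjusted P = 0.171) and that of *H2-K1* by 1.04 (s.e. 0.397, adjusted P = 0.271). The latter rests on the change of *H2-K1* in progenitors, which was -0.29 with this probe and 0.37 with the dimmer one.

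Other genes of the pathway were followed as lists. Of 18 tested partners of class I, 4 were called higher and 2 lower from progenitors to myeloid progenitors without Dox (7% and 6.93% of all genes), and 6 higher and 0 lower with Dox (4.86% and 2.51%). *Psmb9*, the immunoproteasome subunit encoded next to *Tap1*, rose by 1.64 without Dox (adjusted P = 0.00011 in limma) and by 2.26 with Dox, and had risen by 1.62 from HE2 to progenitors without Dox. Its difference with Dox was 0.10 (HE), -0.30 (HE2), -1.08 (progenitors, adjusted P = 0.0279 in limma) and -0.46 (myeloid progenitors), none called. The non-classical class I genes *H2-T23* and *H2-M3* rose by 2.59 and 2.27 without Dox and by 2.90 and 2.32 with Dox, and *H2-Q7* by 1.74 and 2.66. *Tap2*, the other subunit of the transporter, was higher by 0.70 without Dox (adjusted P = 0.0745, not called) and rose by 1.22 with Dox, as did *Tapbp*, which bridges TAP and class I, by 1.44. The difference of *Tap2* with Dox was 0.72 (HE), 0.89 (HE2), -0.53 (progenitors) and -0.02 (myeloid progenitors), none called. *Calr*, a chaperone of the endoplasmic reticulum, fell by 1.39 and *Erap1*, which trims peptides, fell by 1.02 without Dox. *Nlrc5* was dim, at means of 5.68 and 5.70 in myeloid progenitors, and differed from progenitors by -0.43 and -0.24 (neither called). The median of the list was 0.59 without Dox and 0.70 with Dox, compared with -0.12 and -0.07 over all genes.

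Of 10 tested partners of class II, 3 rose without Dox (7% of all genes) and 3 with Dox (4.86%). *Ctss*, cathepsin S, which degrades the invariant chain, was near background in progenitors, where 1 of 2 arrays of each group was well above it. It rose from means of 5.33 and 5.74 in uninduced and induced progenitors to 11.64 and 11.60 in myeloid progenitors. The fitted change of 6.31 without Dox (adjusted P = 8.23e-10 in limma) and 5.86 with Dox rests on these dim spots, so that its size is uncertain. *Lgmn*, an asparaginyl endopeptidase of the endosome, rose by 2.37 and 2.56. *Ifi30*, a thiol reductase of the lysosome, rose by 1.83 without Dox, and *Ctsl* rose with Dox, as it did with Dox in HE2 (1.33) and in myeloid progenitors (1.36). From HE2 to progenitors *Lgmn* fell by 1.68 without Dox and by 1.62 with Dox, and *Ctsl* fell by 1.36 and 2.02, after a fall of 1.01 from HE to HE2 without Dox. Of the costimulators, *Cd40*, a receptor, fell from HE to HE2 by 1.37 without Dox and from HE2 to progenitors by 2.68 without Dox and by 2.24 with Dox. *Cd80* and *Cd86*, the ligands of CD28, rose from HE2 to progenitors without Dox by 1.21 and 1.83, and *Cd80* also from HE to HE2 without Dox by 1.1.

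The constitutive proteasome served as a comparison for *Psmb8*. None of its 14 subunits was called in any of the 10 comparisons by limma, where 5 of 140 values had an unadjusted P under 0.05. Its median from progenitors to myeloid progenitors was 0.01 without Dox and -0.14 with Dox. *Psmb10*, the remaining catalytic subunit of the immunoproteasome, rose from HE to HE2 without Dox by 1.18 (adjusted P = 0.000262), and was at means of 15.67 in uninduced progenitors and 15.69 in uninduced myeloid progenitors.

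Of 12 tested regulators of the interferon response, 3 were called higher from progenitors to myeloid progenitors without Dox (7% of all genes) and 4 with Dox (4.86%). *Stat2*, *Irf8* and *Irf9* rose in both settings. The median of the list was 0.16 without Dox and 0.08 with Dox, compared with -0.12 and -0.07 over all genes. *Irf9*, part of the complex that acts downstream of type I interferon, rose by 2.54 and 3.11. *Irf8*, a transcription factor of monocytes and dendritic cells, rose by 2.22 and 1.87.

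With Dox, the numbers of the 12 regulators called were 2 (HE), 2 (HE2), 1 (progenitors) and 0 (myeloid progenitors), beside the shares of all genes given above. *Irf1*, a transcription factor that binds class I promoters, fell in HE by 1.33 (s.e. 0.224, adjusted P = 0.000383 in limma) and in progenitors by 1.17 (s.e. 0.274, adjusted P = 0.0149), and differed by -0.91 in HE2 (adjusted P = 0.00861) and -0.91 in myeloid progenitors (adjusted P = 0.0098), both under 2-fold. All induced arrays were below all uninduced ones in the 4 stages. That order was seen for 11% (HE), 15.2% (HE2), 26.4% (progenitors) and 22.7% (myeloid progenitors) of all genes. In HE2 *Ifnar1*, a chain of the receptor for type I interferon, rose by 1.07 (adjusted P = 0.00107), and *Irf2*, which binds the same elements as *Irf1*, rose by 1.045 (adjusted P = 0.000414). *Irf8* rose with Dox in HE by 1.52 (s.e. 0.247, adjusted P = 0.00028), and its difference was 0.68 (HE2), -0.61 (progenitors) and -0.96 (myeloid progenitors), none of them called. For *Irf1*, *Irf8*, *Ifnar1*, *Irf2*, *H2-T23*, *Cd274* and *Ctsl*, taken for their called changes, the response to Dox was also compared over the 6 pairs of stages, and passed the test for *Irf8* alone, in 3 of the pairs. *H2-T23* rose in HE by 1.41 and *Cd274*, the ligand of PD-1, in myeloid progenitors by 1.07.

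**Figure D4:**
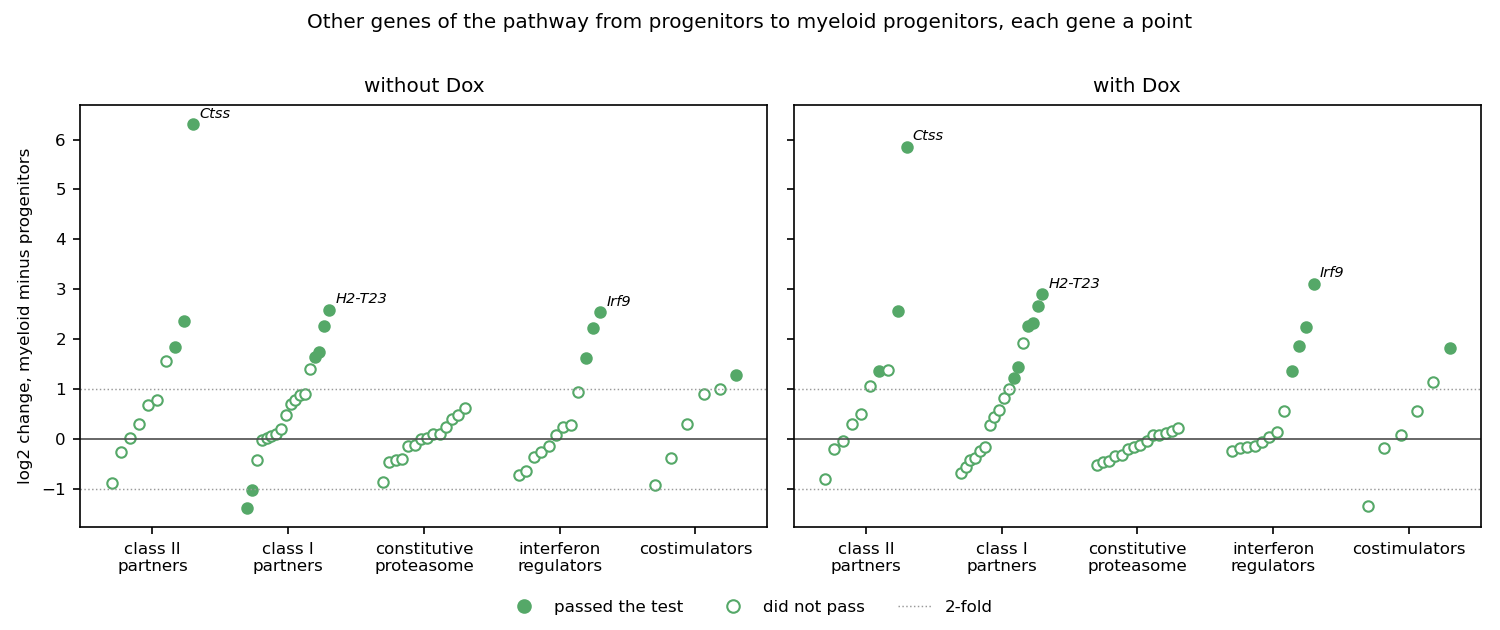
Log2 change from progenitors to myeloid progenitors of the other tested genes of the pathway, by list (horizontal axis), without Dox (left) and with Dox (right). Each circle is a gene, filled where it passed the test, and dotted lines mark 2-fold. *Ctss*, near background in progenitors, is the top circle at 6.31 and 5.86, and the 14 constitutive proteasome genes hold no filled circle.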

How the data were processed

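Spot intensities and local background intensities were deposited as read by Feature Extraction, version 10.7.3.1 per the file headers and 10.7.1.1 per the submitters' processing notes, without normalization between arrays. They also deposited log2 values per array, already corrected and quantile normalized, which served as an alternative. Starting from the median intensities, normexp correction (offset 16) was applied, 3671 control spots and the outlier spots were left out, and quantile normalization covered all 23 arrays before spots of a probe were averaged. Accessions were matched to symbols in the RefSeq table of GRCm38.p6, while the array was annotated on mm9, so that no probe coordinates are given. Genes that reached 6.5 on the log2 scale on 1 array or more (15202) entered the linear model of limma 3.58.1 (lmFit, then eBayes) in R 4.3.3, with 8 group means over 22 arrays and 14 residual degrees of freedom, after a test on simulated data. Called genes had an unadjusted P value no higher than 0.001 and means 2-fold or more apart, and P values were adjusted over all tested genes (Benjamini-Hochberg). The number of arrays limits the precision.

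The 10 members and all gene lists were chosen with earlier results of these data known. The text names all 10 members, up to 4 called genes with the largest change per comparison among the pathway lists, *Psmb9*, *Tap2*, *Nlrc5*, *Irf1* and *Irf8*, *Runx1t1* as a check, and the 3 genes nearest to *Cd74* and *B2m*. *H2-M3*, *Tapbp*, *Calr*, *Erap1*, *Ifi30*, *Stat2*, *Itgax* and *Clec9a* were added after their values were seen. Some genes of the lists are not reported here. In the check of the replicate numbers, deviations from the group means correlated across genes at 0.394 to 0.795 between equally numbered uninduced HE and HE2 arrays, and those numbers alone were treated as pairs.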

Additional observations from a re-analysis of the deposited data

Results flagged for a closer look

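The response of *Irf8*, the transcription factor of monocytes and dendritic cells, to Dox differed between stages. *Irf8* was looked at because its change in HE had been called, so that this comparison is not independent of that call. Its group means were 7.11 without Dox and 8.63 with Dox in HE, 8.11 and 8.79 in HE2, 9.85 and 9.24 in progenitors, and 12.07 and 11.11 in myeloid progenitors. The change with Dox was lower in progenitors than in HE by a log2 difference of -2.13 (s.e. 0.391, adjusted P = 0.00388 in limma). In myeloid progenitors it differed from HE by -2.48 (s.e. 0.349, adjusted P = 0.000273) and from HE2 by -1.64 (s.e. 0.349, adjusted P = 0.0156). The other 3 pairs of stages did not pass for *Irf8*, and none of the 6 pairs did for *Irf1*, *Ifnar1*, *Irf2*, *H2-T23*, *Cd274* or *Ctsl*. All myeloid arrays and 1 of the 2 induced progenitor arrays lay on slide 3, while the HE and HE2 arrays lay on slides 1 and 2, and the part of the slide in these differences was not tested.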

How the results depend on the processing

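The 10 counts of called members and 2 of changed Dox responses were recomputed under each alternative. From progenitors to myeloid progenitors without Dox the count of 6 was 3 with scaling to the 75th percentile and 3 with slide as a block, and 7, with *H2-Ab1*, with the mean of a gene's probes (1.15), at an adjusted P of 0.05 and with the additional array as replicate 3 (1.30). With Dox it was 7 at an adjusted P of 0.05. From HE2 to progenitors without Dox the count of 0 was 1 at an adjusted P of 0.05, 1 with the additional array as replicate 3 and 1 with slide as a block, and between 0 and 1 without 1 array at a time. From HE2 to progenitors with Dox it was 1 at an adjusted P of 0.05, and between 0 and 1 without 1 array. No count of called members changed under an offset of 50, the deposited log2 values or other filters on dim probes, and slide 3 alone, an alternative chosen after seeing the data, gave 4 and 6 in the last step. Of 194 alternative values of the 12 called changes, 182 stayed called, 12 did not (all without Dox) and 0 turned direction. With the replicate number as a block, the pairing changed no count of called members, and 6 were called from progenitors to myeloid progenitors in either setting. Scaling to the 75th percentile moved the median of all genes to -0.31 in that step without Dox, -0.17 with Dox, -0.23 for Dox in progenitors, -0.11 in HE2, -0.12 in myeloid progenitors and -0.14 from HE2 to progenitors with Dox. It left 876 of 2343 calls higher in the last step without Dox instead of 1064 of 2118, 453 of 740 from HE to HE2 without Dox instead of 364 of 770, and 295 of 437 with Dox instead of 247 of 471. With slide as a block, 574 of all genes were called in the last step without Dox instead of 2118, 331 instead of 567 for Dox in progenitors and 741 instead of 1119 from HE2 to progenitors with Dox, and slide 3 alone gave 1311. The causes were not tested. Dim spots limit what can be said of *H2-Aa*, *H2-Eb1* and *Ciita*.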
